A study of Mus musculus with 16 samples.

Results

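The genes described here are 40 genes of leukocyte recruitment and NF-kB signalling in endothelial cells, chosen by name for their roles. They comprise 6 genes of leukocyte adhesion, 15 chemokines, 10 cytokines and 9 NF-kB subunits, feedback regulators and targets, of 52636 genes in the count table. Of the 40, 39 passed the filter on low counts and were tested among 19646 genes. The remaining one, Madcam1, a mucosal addressin, had at most 0.132 CPM in any library. The filter asks for enough counts in a group's worth of libraries, so that a gene expressed in 1 group can pass through that group alone.

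RNA had been sequenced from endothelial cells of mouse liver, lung and heart on day 10 after tamoxifen was given to induce deletion. The KO animals are labelled as lacking both Erg and Fli1, which encode transcription factors of the ETS family, and the Control animals are labelled wild type. The labels name no Cre driver, and the treatment text, tamoxifen included, is the same for both genotypes. Cells had been labelled in the living animal with an antibody against VE-cadherin, released with collagenase and dispase, and sorted as live, CD45-negative, CD31-positive and VE-cadherin-positive. Liver and lung had 3 libraries and heart 2 per genotype, 16 in all. Nothing in the labels says that libraries numbered within a group came from separate animals, so p-values measure the spread between these libraries, part of which may be technical. Total counts ran from 30226340 to 41449054 per library. By Xist and Y-linked genes, 1 library of each liver and lung group and 1 of the 2 Heart KO libraries was male, and both Heart Control libraries were female.

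Levels are given as CPM, which divide the counts by the TMM-scaled library total, or per kilobase of exon as RPKM, and listed in the order of the library numbers. The words higher, rose, lower and fell compare KO with Control and are used of a change for genes with a Benjamini-Hochberg adjusted p below 0.05 in the edgeR quasi-likelihood test over all genes. Where a fold change is followed by SE, that is its standard error on the log2 scale.

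Inflamed endothelium recruits leukocytes in steps. Selectins slow the passing cell, chemokines held on the vessel wall activate its integrins, and the integrins then grip ICAM and VCAM molecules before the cell crosses. Much of this set is switched on through NF-kB, whose RelA, p50, p52 and RelB subunits are held back by IκB proteins, and which induces its own brakes, among them IκBα and A20. The recruited cells differ by signal: CCL2 and CCL7 draw monocytes, CXCL1, CXCL2 and CXCL5 draw neutrophils, and CXCL9, CXCL10 and CXCL11 draw CXCR3-bearing T and NK cells. In cultured endothelium, ERG is known to hold back ICAM1 and other NF-kB targets.

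The labels were checked on the 2 deleted genes. Erg had 165, 136 and 131 CPM in Liver KO, against 361, 337 and 371 CPM in Liver Control (log2 fold change −1.31, SE 0.132, adjusted p = 1.54e-05). In lung Erg was lower by less (log2 −0.52, adjusted p = 0.0231, and up to 0.267 in an alternative), and in heart the difference did not pass (log2 −0.47, adjusted p = 0.0538). Fli1 had 136, 98.2 and 138 CPM in Lung KO and 76.6, 77.9 and 76.6 CPM in Lung Control and was higher there (log2 0.69, adjusted p = 0.0131, and up to 0.0537 without 1 library), and it passed in neither liver (0.1) nor heart (0.978) by adjusted p. Counts over a whole gene do not show whether a deleted exon is missing from the transcript. The endothelial label was checked on Cdh5 and Pecam1, which encode the VE-cadherin and CD31 of the sort. Cdh5 ran from 1603 to 3337 CPM in KO and from 1798 to 3777 CPM in Control libraries. Pecam1 ran from 1051 to 2118 CPM in KO and from 1338 to 2646 CPM in Control libraries. These ranges pool the tissues. Within tissues, Cdh5 was separated by genotype only in heart, with 1920 and 2234 CPM in KO and 2630 and 2818 CPM in Control. Pecam1 was separated only in lung, with 2089, 1679 and 1391 CPM in KO and 2588, 2543 and 2646 CPM in Control. Of 12 endothelial markers 7 were lower in Heart KO, 6 in Liver KO and 5 in Lung KO, where 9.09%, 9.87% and 4.11% of all genes tested were. In Lung KO 1 of the 12 was higher, where 4.35% of all genes tested were.

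Promoter windows from RefSeq (GRCm38.p6, 250 bases before to 50 bases after the transcription start) were held for 24 of the 40 genes. They were searched on both strands for the NF-kB consensus GGGRNWYYCC, where R is A or G, W is A or T, Y is C or T and N is any base. They were also searched for GGAA, the core that ETS factors bind, and for a pair of longer ETS words, CCGGAAG and the variant CAGGAAG. Both words contain the core, and a match to the NF-kB consensus can overlap it. The NF-kB consensus stood in the windows of 9 of the 24 genes (37.5%), against 4.51% of 32851 windows of all genes. These were Cxcl1, Cxcl2, Cxcl10, Il6, Csf1, Nfkbia, Nfkb2, Tnfaip3 and Madcam1. The core stood in all 24 genes and all 28 windows, against 96.0% of all windows. CCGGAAG stood in none (0% of the 24, against 8.86% of all windows). CAGGAAG stood in 2 genes, Sele and Cxcl2 (8.33% of the 24 genes, in 2 of 28 windows, against 13.3% of all windows). A match is a string of letters and no measured binding site, and its absence says only that these letters are not in the window.

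Windows of 7 genes are printed because the results below turn on them: the neutrophil chemokines Cxcl1 (chr5:90890995-90891294, plus strand) and Cxcl2 (chr5:90903649-90903948, plus strand), the interferon-inducible neighbours Cxcl10 (chr5:92348840-92349139, minus strand) and Cxcl9 (chr5:92328030-92328329, minus strand), the cytokine Il6 (chr5:30012864-30013163, plus strand), and Tnfaip2 (chr12:111442411-111442710, plus strand) and Ninj1 (chr13:49187279-49187578, plus strand), the only genes of the set that rose in all 3 tissues. Each runs 5′ to 3′ on the gene's strand. Capitals mark the NF-kB consensus on either strand and, in Cxcl2, also CAGGAAG read on the other strand (CTTCCTG).
Cxcl1: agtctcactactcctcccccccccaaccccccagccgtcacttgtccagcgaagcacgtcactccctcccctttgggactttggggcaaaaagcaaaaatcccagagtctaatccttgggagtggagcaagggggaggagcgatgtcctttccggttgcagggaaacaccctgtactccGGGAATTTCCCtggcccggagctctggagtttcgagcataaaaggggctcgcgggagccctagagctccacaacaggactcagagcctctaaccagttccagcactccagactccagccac
Cxcl2: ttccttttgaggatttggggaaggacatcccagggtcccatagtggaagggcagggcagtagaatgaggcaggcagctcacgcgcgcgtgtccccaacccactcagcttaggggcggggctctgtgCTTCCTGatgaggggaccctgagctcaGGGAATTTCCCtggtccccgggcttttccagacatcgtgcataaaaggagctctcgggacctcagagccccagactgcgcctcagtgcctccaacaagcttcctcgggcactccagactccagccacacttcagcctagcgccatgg
Cxcl10: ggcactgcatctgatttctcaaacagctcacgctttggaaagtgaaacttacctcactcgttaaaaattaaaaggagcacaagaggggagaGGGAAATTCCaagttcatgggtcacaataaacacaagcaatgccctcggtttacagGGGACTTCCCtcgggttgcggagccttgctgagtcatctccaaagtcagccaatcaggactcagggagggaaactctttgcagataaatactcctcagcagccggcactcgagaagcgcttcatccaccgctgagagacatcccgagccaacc
Cxcl9: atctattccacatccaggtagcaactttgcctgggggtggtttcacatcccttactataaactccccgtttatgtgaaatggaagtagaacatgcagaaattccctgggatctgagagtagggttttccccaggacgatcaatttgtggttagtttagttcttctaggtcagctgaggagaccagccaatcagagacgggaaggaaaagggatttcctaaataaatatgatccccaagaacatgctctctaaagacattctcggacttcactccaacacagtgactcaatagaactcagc
Il6: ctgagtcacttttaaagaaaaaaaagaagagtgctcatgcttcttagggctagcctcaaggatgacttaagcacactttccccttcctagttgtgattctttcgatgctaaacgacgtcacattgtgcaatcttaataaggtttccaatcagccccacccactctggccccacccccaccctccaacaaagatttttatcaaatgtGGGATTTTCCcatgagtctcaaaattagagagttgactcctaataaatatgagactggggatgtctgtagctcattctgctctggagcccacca
Tnfaip2: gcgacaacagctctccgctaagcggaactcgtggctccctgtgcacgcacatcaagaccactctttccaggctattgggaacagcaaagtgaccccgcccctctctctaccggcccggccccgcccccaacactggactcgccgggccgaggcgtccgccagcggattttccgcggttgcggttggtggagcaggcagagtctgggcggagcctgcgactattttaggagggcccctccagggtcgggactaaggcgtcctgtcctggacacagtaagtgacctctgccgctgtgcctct
Ninj1: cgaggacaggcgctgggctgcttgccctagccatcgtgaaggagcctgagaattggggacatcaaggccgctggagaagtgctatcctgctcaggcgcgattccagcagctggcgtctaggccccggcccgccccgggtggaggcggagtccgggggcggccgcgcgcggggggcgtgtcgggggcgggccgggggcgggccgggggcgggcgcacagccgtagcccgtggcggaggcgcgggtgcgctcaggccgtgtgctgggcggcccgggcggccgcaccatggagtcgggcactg
Cxcl1 and Cxcl2 carry the same 11 letters, GGGAATTTCCC, which match the consensus on both strands, starting 71 bases before the start of Cxcl1 and 97 bases before that of Cxcl2. Cxcl10 holds 2 matches, 159 and 103 bases before its start, and its neighbour Cxcl9 holds none. Il6 holds 1, 44 bases before its start. No capitals appear in the windows of Tnfaip2 and Ninj1.

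In heart, 17 genes of the 39 were higher and 2 lower in KO than in Control, where 10.2% and 9.09% of all genes tested were (19.3% in either direction). Their median log2 fold change was 1.79, against 0.01 over all genes. These are bulk libraries, in which fewer cells of a type and less RNA per cell cannot be told apart. In liver 8 were higher and 6 lower, where 9.54% and 9.87% of all genes were (19.4% in either direction), with a median of 0.17 against 0.02. In a fit of liver alone 8 of these 14 calls were lost (Vcam1, Ccl2, Cxcl1, Cxcl9, Csf3, Il34, Lif and Tnfaip2), with adjusted p up to 0.13. In lung 5 were higher and none lower by the edgeR test, where 4.35% and 4.11% of all genes were (8.46% in either direction), with a median of 0.26 against −0.02. Of the 39, 7 were higher and 5 lower in lung at an unadjusted p under 0.05, where 10.7% and 11.9% of all genes were, and DESeq2's Wald test called 2 lower at an adjusted p under 0.05. Averaged over the 3 tissues, 21 were higher and 5 lower, where 15.2% and 14.1% of all genes were (29.3% in either direction). The change in heart differed from that in liver for 8 genes of the set, where 8.32% of all genes differed, and from that in lung for 8, where 6.4% did. Lung and liver differed for 5, where 6.2% of all genes did.

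**Figure D1:**
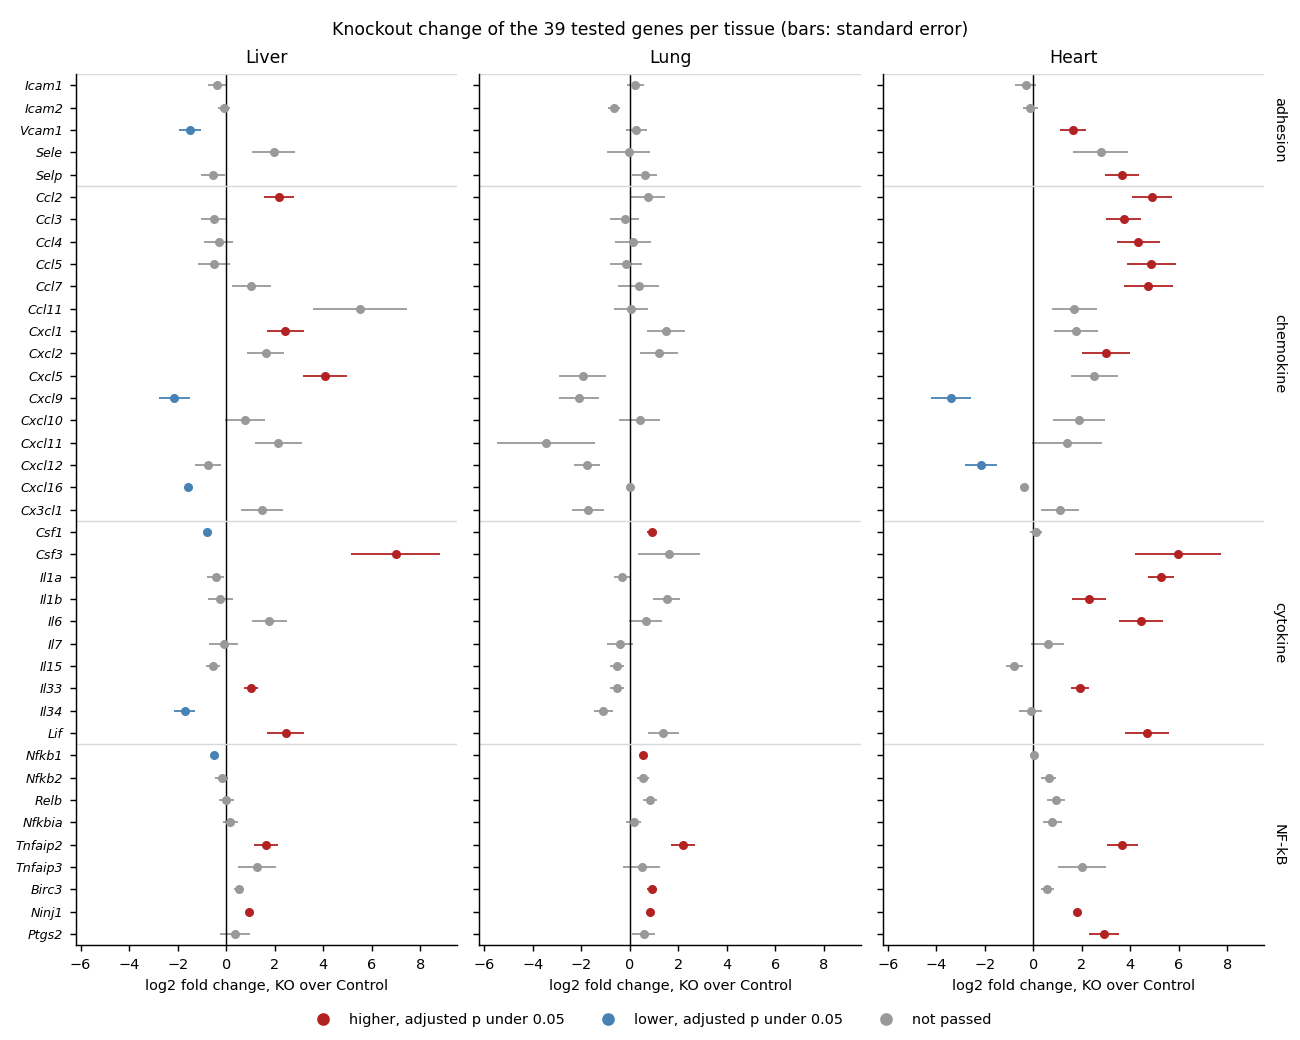
Log2 fold change of each of the 39 tested genes (KO over Control, horizontal axis) in liver, lung and heart, with genes down the page by role and bars of 1 standard error; the liver folds of Ccl11 and Csf3, with 0 and 1 count in Control, depend on the prior count. Coloured points passed an adjusted p of 0.05; most of those in heart lie right of 0, while liver has 8 on the right and 6 on the left, and lung has 5 on the right.

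The libraries of both genotypes did not overlap for 33 of 39 genes in heart, 10 in liver and 13 in lung, where 59%, 37% and 29.4% of all genes tested did not. Ninj1 and Tnfaip2 rose in all 3 tissues. Ccl2, Csf3, Il33 and Lif rose, and Cxcl9 fell, in liver and heart and did not pass in lung. Csf1, Nfkb1 and Vcam1 changed in opposite directions in 2 tissues, 16 genes changed in 1 tissue, and 13 passed in none.

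Among the adhesion receptors, Vcam1 and Selp rose in heart and Vcam1 fell in liver. Vcam1, which binds the α4β1 integrin of lymphocytes and monocytes, had 297 and 211 CPM in Heart KO and 73.2 and 90.6 CPM in Heart Control, and was higher (log2 fold change 1.63, SE 0.541, adjusted p = 0.049). In liver it was lower, with 59.3, 38.7 and 151 CPM in KO and 271, 182 and 245 CPM in Control (log2 fold change −1.49, SE 0.44, adjusted p = 0.0294). The groups did not overlap in either tissue, and the fold changes of heart and liver differed by 3.12 on the log2 scale, heart minus liver (SE 0.699, adjusted p = 0.0144). The heart call was close to the threshold and was lost without any of 12 of the 16 libraries, with adjusted p up to 0.212. It was also lost with DESeq2 size factors in edgeR (0.0506). The liver call was lost without KO 1, KO 2, Control 1 or Control 3, with adjusted p up to 0.101, and without the male libraries. The heart-to-liver difference was lost without Heart KO 1 or either Heart Control, and was 2.78 to 3.88 with 1 library left out. In lung Vcam1 had 101, 60.1 and 182 CPM in KO and 107, 84.7 and 93.4 CPM in Control, with overlapping groups.

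Selp encodes P-selectin, which endothelial cells store for quick release and which slows leukocytes and binds platelets. Heart KO had 45.4 and 18.4 CPM and Heart Control 2.38 and 2.66 CPM, so that both KO libraries lay far above both Controls (log2 fold change 3.66, SE 0.707, adjusted p = 0.00301). Liver had 31.7, 25.5 and 47.6 CPM in KO and 65.6, 41.1 and 46.2 CPM in Control, and lung 19.8, 6.84 and 47.1 CPM in KO and 17.4, 12.3 and 18.2 CPM in Control, with overlap in both. The heart change exceeded that of liver by 4.21 (adjusted p = 0.00893, and up to 0.0574 without Heart Control 1) and that of lung by 3.04 (adjusted p = 0.0481, lost without any of 12 of the libraries, up to 0.204). Platelets carry Selp too, and the summed level of 6 platelet markers was 445 and 326 CPM in Heart KO and 29.7 and 33.7 CPM in Heart Control, with 3 of them higher; their part was not tested.

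Sele, encoding E-selectin, which endothelium makes on activation, varied widely within groups. It had 152 and 39.5 CPM in Heart KO and 9.75 and 18 CPM in Heart Control, a difference that did not pass (log2 2.79, adjusted p = 0.105, and 0.0131 in a fit of heart alone). Liver had 83.9, 8.06 and 164 CPM in KO and 40.7, 5.79 and 19.4 CPM in Control, and lung 14.8, 6.75 and 32 CPM in KO and 21.9, 12.2 and 21.3 CPM in Control, with overlap. Its mean effect over the tissues passed narrowly (log2 fold change 1.56, SE 0.558, adjusted p = 0.0489) and was lost without any of 12 of the libraries, with adjusted p up to 0.184.

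Icam1 and Icam2, the ligands of the leukocyte integrin LFA-1, passed in no tissue. Icam1 averaged 484 ± 195 CPM in Lung KO and 412 ± 41.9 CPM in Lung Control (SD, n = 3 each), 141 ± 70.5 and 183 ± 49.4 CPM in Liver KO and Liver Control (n = 3 each), and 119 ± 43.4 and 149 ± 13.7 CPM in Heart KO and Heart Control (n = 2 each). The 95% intervals of its log2 fold change were −1.09 to 0.33 in liver, −0.48 to 0.94 in lung and −1.19 to 0.55 in heart, wide enough to hold a log2 change of −1 in liver or heart. Icam2 was below every Control in each Lung KO library, at 338, 577 and 278 CPM in KO and 605, 635 and 629.9 CPM in Control, and did not pass (log2 −0.65, adjusted p = 0.135).

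**Figure D2:**
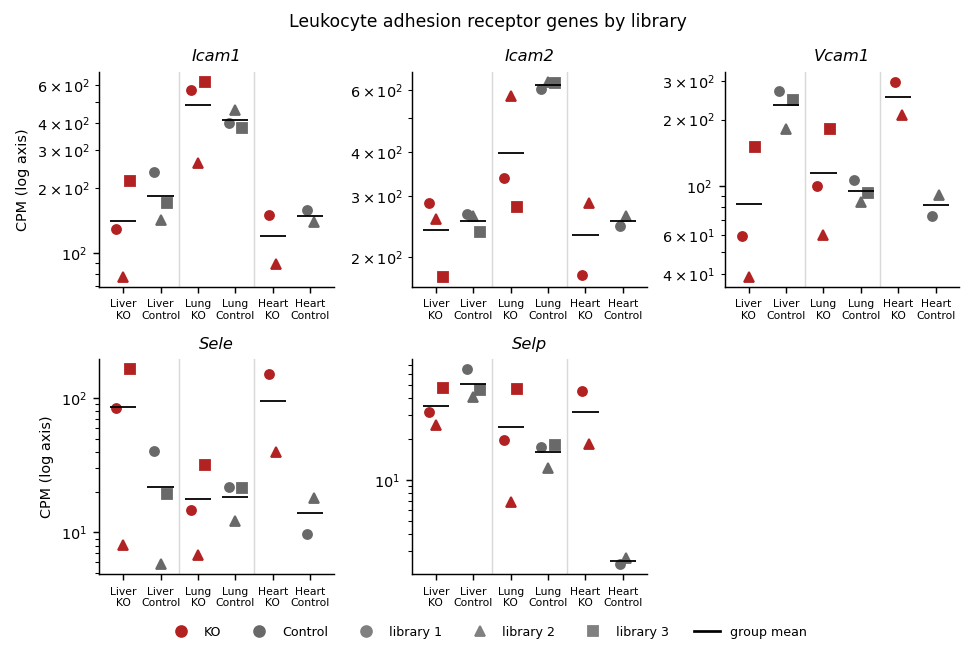
Level in CPM (vertical, log axis) of 5 adhesion receptor genes in each of the 16 libraries, KO red and Control grey in each tissue, with the library number as symbol and a line at the group mean. Vcam1 lies above the Controls in Heart KO and below them in Liver KO, and Selp reaches 18.4 and 45.4 CPM in Heart KO.

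Ccl2 and Ccl7, monocyte chemokines, rose in heart. Ccl2, which draws monocytes through CCR2, had 186 and 89.3 CPM in Heart KO and 4.38 and 4.91 CPM in Heart Control (log2 fold change 4.89, SE 0.834, adjusted p = 0.00135). Its neighbour on chromosome 11, Ccl7, which shares that receptor, had 46 and 30.8 CPM in Heart KO and 1.19 and 1.66 CPM in Heart Control (log2 fold change 4.75, SE 1.03, adjusted p = 0.00598). For each gene both KO libraries lay far above both Controls, and the Ccl7 call was lost without either Heart Control (adjusted p up to 0.0641). In liver Ccl2 also rose, with 12.7, 4.15 and 32.7 CPM in KO and 4.35, 2.14 and 4.37 CPM in Control (log2 fold change 2.18, SE 0.619, adjusted p = 0.0237). There the groups overlapped, since KO 2 was below Control 1 and Control 3, and the call was lost without KO 3 or any Control, with adjusted p up to 0.14. In lung Ccl2 was at most 2.15 CPM in any library, and the heart change exceeded that of lung by 4.12 (adjusted p = 0.0314, up to 0.12 without 1 of 6 lung or heart libraries).

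Ccl3, Ccl4 and Ccl5, chemokines that leukocytes themselves make in quantity, were very low in Heart Control and rose in Heart KO. Ccl3 had 6.02 and 5.58 CPM in Heart KO and 0.203 and 0.665 CPM in Heart Control (log2 fold change 3.72, SE 0.729, adjusted p = 0.00325). Ccl4 had 3.67 and 5.55 CPM in Heart KO and 0.0871 and 0.36 CPM in Heart Control (log2 fold change 4.34, SE 0.892, adjusted p = 0.0044), and Ccl5 1.71 and 2.64 CPM in Heart KO and 0.0871 and 0.0554 CPM in Heart Control (log2 fold change 4.87, SE 1.01, adjusted p = 0.00471). In none of the 3 did the groups overlap, and none exceeded 6.02 CPM in a heart library. Their heart changes exceeded those of liver by 4.24, 4.64 and 5.36 and those of lung by 3.94, 4.19 and 5.04 on the log2 scale, all with adjusted p of 0.0436 or less, although leaving out 1 library took these up to 0.16. Without Heart Control 1 the heart call of Ccl4 was lost (adjusted p = 0.0521), and without Heart Control 2 that of Ccl5 (0.0535).

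Markers of several other cell types also differed in heart, not all in 1 direction. All 12 pan-leukocyte markers were higher in Heart KO, with summed levels of 127 and 150.2 CPM against 25.3 and 39.7 CPM in Heart Control. Ptprc, which encodes the CD45 that the sort excluded, had 7.12 and 7.58 CPM in Heart KO and 1.31 and 2.0 CPM in Heart Control. Of 14 macrophage and monocyte markers 5 were higher in heart, with sums of 265 and 489 CPM in KO and 31.1 and 76 CPM in Control, and Clec4f, Marco and Cd5l at 0 in both Controls. Of 8 lung epithelial markers 4 were higher in Heart KO (97.7 and 157 CPM, against 8.04 and 11.2 CPM in Heart Control). Mesothelial sums were 135 and 106 CPM in Heart KO and 94.5 and 89.4 CPM in Heart Control, with 2 of 8 markers higher. Fibroblast and mural sums were 2035 and 2356 CPM in Heart KO and 1599.8 and 1739 CPM in Heart Control, with none of 13 called. Neutrophil sums were 11.4 and 3.46 CPM in Heart KO and 1.22 and 2.38 CPM in Heart Control, with none of 6 called. Cardiomyocyte sums went the other way, at 158 and 132 CPM in Heart KO and 161 and 254 CPM in Heart Control, with 4 of 8 markers lower. None of 7 tested T and NK cell markers and none of 6 B cell markers was called in heart. Pan-leukocyte sums overlapped between genotypes in liver (191 to 243 CPM in KO, 179 to 297 CPM in Control) and lung (108 to 164 CPM in KO, 137 to 185 CPM in Control), and none of the 12 passed there. The part these markers play in the heart changes was not tested.

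**Figure D3:**
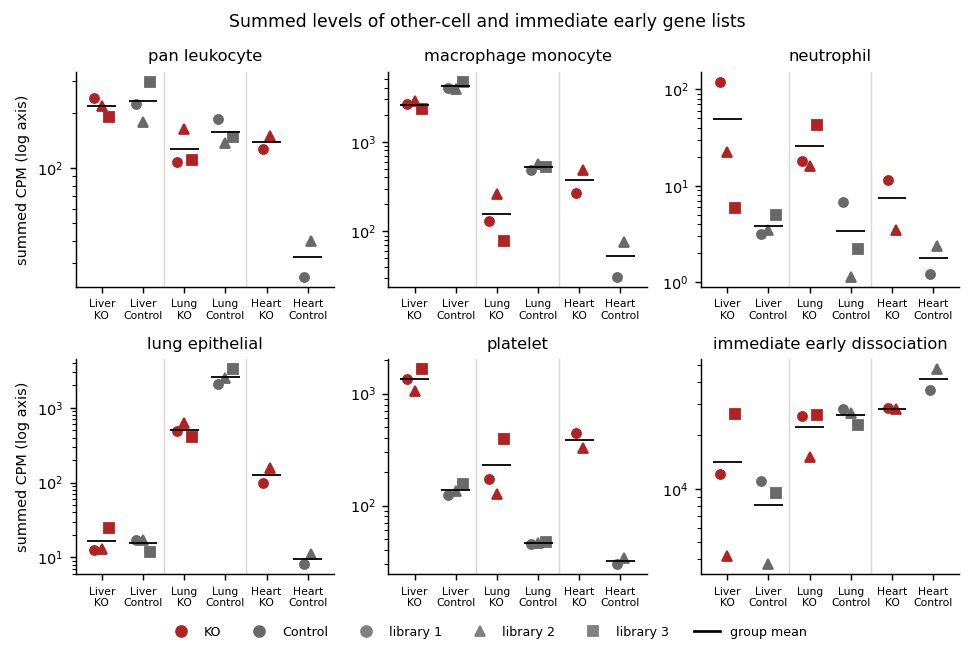
Summed CPM (vertical, log axis) of 6 gene lists in each library, KO red left of Control grey within each tissue, with the library number as symbol and a line at the group mean. The pan-leukocyte, macrophage and lung epithelial sums are higher in both Heart KO libraries than in either Heart Control, and the immediate early sum is highest among liver libraries in KO 3.

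Cxcl5 and Cxcl1, which draw neutrophils, were higher in liver. Cxcl5 had 2.58, 2.23 and 3.16 CPM in Liver KO and 0.237, 0.0681 and 0.152 CPM in Liver Control (log2 fold change 4.06, SE 0.90, adjusted p = 0.00584), a low level in every library but with no overlap, and the call held in every alternative run. Cxcl1 had 48.1, 14 and 182 CPM in Liver KO and 26.5, 5.17 and 13.4 CPM in Liver Control (log2 fold change 2.43, SE 0.762, adjusted p = 0.0381). KO 2 lay below Control 1, and the call was lost without KO 3 (adjusted p = 0.29), Control 2, Control 3 or Lung Control 3. Cxcl2, whose window carries the same NF-kB string as that of Cxcl1, had 16.6, 4.44 and 37.7 CPM in Liver KO and 8.67, 3.44 and 6.84 CPM in Liver Control and did not pass (log2 1.63, adjusted p = 0.162).

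In heart Cxcl2 passed and its neighbours did not. Cxcl2 was higher, with 94.3 and 43.9 CPM in Heart KO and 12.4 and 4.93 CPM in Heart Control (log2 fold change 3.0, SE 0.979, adjusted p = 0.0464), although the call was lost without any of 11 of the libraries, with adjusted p up to 0.243. Cxcl1 had 229 and 134 CPM in Heart KO and 67.8 and 39.7 CPM in Heart Control and did not pass (log2 1.76, adjusted p = 0.197), nor did Cxcl5 (5.24 and 1.36 CPM in Heart KO, 0.435 and 0.721 CPM in Heart Control; log2 2.5, adjusted p = 0.088). All 3 were separated by genotype in heart, and differences between heart and liver passed for none of them. In a fit of heart alone Cxcl1 passed (adjusted p = 0.00766) and so did Cxcl5 (0.0393). In lung Cxcl5 had at most 0.824 CPM, in Control 1, and the lung change was below that of liver, lung minus liver being −6.01 (adjusted p = 0.0149, and 0.073 without Lung Control 1). Neutrophil markers were high in 1 Liver KO library, with sums of 119, 22.6 and 5.94 CPM in Liver KO and 3.16, 3.47 and 4.95 CPM in Liver Control and 3 of 6 tested markers higher (S100a9, S100a8 and Retnlg), and their part in the liver changes was not tested. Macrophage and monocyte sums were 2626, 2828 and 2350.3 CPM in Liver KO and 3986, 3859.8 and 4667 CPM in Liver Control, with none of 14 markers called. Most of that sum was Mrc1, which liver sinusoidal endothelium also expresses.

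Among the interferon-inducible chemokines, Cxcl9 fell in heart and liver, and Cxcl10 and Cxcl11 passed in no tissue. Cxcl9 fell in heart, with 2.37 and 5.27 CPM in KO and 43 and 37.4 CPM in Control (log2 fold change −3.39, SE 0.837, adjusted p = 0.0125), and in liver, with 27.3, 10.5 and 86.6 CPM in KO and 218, 164 and 169 CPM in Control (log2 fold change −2.15, SE 0.633, adjusted p = 0.0289). Groups did not overlap in either tissue, but the liver call was lost without KO 1, KO 2 or any Control (adjusted p up to 0.0957) and the heart call without KO 1 (0.114). Cxcl10, the next CXCR3 ligand on the same stretch of chromosome 5, had 21.5 and 17.2 CPM in Heart KO and 6.09 and 4.41 CPM in Heart Control, all KO above all Control, and did not pass (log2 1.88, adjusted p = 0.243, and 0.00223 in a fit of heart alone). In liver Cxcl10 had 132, 27.3 and 529 CPM in KO and 203, 74.7 and 123 CPM in Control, a spread that holds the whole Control range, and its log2 fold change of 0.78 became −0.74 without KO 3.

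Within each library the ratio of Cxcl10 to Cxcl9 counts does not depend on library size. It was 9.07 and 3.26 in Heart KO and 0.142 and 0.118 in Heart Control, and 4.85, 2.61 and 6.10 in Liver KO and 0.931, 0.456 and 0.732 in Liver Control, with no overlap in either tissue. Lung had ratios of 31.2, 2.42 and 71.1 in KO and 4.47, 6.22 and 1.35 in Control, which overlapped and rested on 7 to 31 counts of Cxcl9 in KO. This ratio was chosen after the levels had been seen and was not tested. Cxcl11 stayed at or below 16.1 CPM in every library. Of 15 other genes of the interferon-gamma response, 12 fell in liver, 10 in lung and 10 in heart, where 9.87%, 4.11% and 9.09% of all genes tested did. Gbp5, a guanylate-binding protein gene, had 24.5 ± 8.79 CPM in Heart KO and 121 ± 15 CPM in Heart Control (SD, n = 2 each; log2 −2.31, adjusted p = 0.000234), and Gbp2 had 14.6 ± 3.5 CPM in Liver KO and 72.6 ± 5.64 CPM in Liver Control (n = 3 each; log2 −2.31, adjusted p = 1.05e-05).

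Cxcl16 and Cxcl12, which vessel walls make without inflammation, each fell in 1 tissue. Cxcl16, the ligand of CXCR6 on T and NKT cells (chr11:70453983-70459984), had 88.5, 89.4 and 68.4 CPM in Liver KO and 250.4, 233 and 239.8 CPM in Liver Control, a fall that held in every alternative (log2 fold change −1.55, SE 0.155, adjusted p = 1.37e-05, at most 0.00211 in any alternative). Lung had 23.9, 36.1 and 36.4 CPM in KO and 28.4, 33.8 and 32.6 CPM in Control and heart 21.1 and 18.9 CPM in KO and 24.1 and 27.4 CPM in Control, neither past the threshold. The lung and heart changes lay above that of liver by 1.58 (adjusted p = 0.000826) and 1.19 (adjusted p = 0.00895, and 0.0531 without Heart Control 1).

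Cxcl12, which retains CXCR4-bearing cells, had the highest level of the set per kilobase in Heart Control and fell in heart, with 614 and 923 CPM in Heart KO and 3295 and 3496 CPM in Heart Control (log2 fold change −2.14, SE 0.654, adjusted p = 0.0348). The call was lost without any 1 of the 4 heart libraries, with sex as a covariate, with the block of description numbers and without the male libraries. With 1 library left out the log2 fold change was −2.47 to −1.88. Lung had 316, 385 and 92.5 CPM in KO and 995, 712 and 991 CPM in Control, also without overlap, and missed the threshold (log2 −1.77, adjusted p = 0.0547), while a fit of lung alone gave an adjusted p of 0.0453. Liver had little Cxcl12, with 6.06, 3.1 and 13.4 CPM in KO and 13.7, 6.6 and 17.1 CPM in Control. The changes did not differ between tissues beyond the threshold.

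Cx3cl1, the membrane-bound fractalkine that captures monocytes, did not pass in any tissue and is given in full because its values, once seen, separated both genotypes in lung and in heart. Lung had 76.4, 56.8 and 76.7 CPM in KO and 179, 270.4 and 239 CPM in Control (log2 −1.71, adjusted p = 0.131). Heart had 209.6 and 211 CPM in KO and 118 and 78.2 CPM in Control (log2 1.10, adjusted p = 0.36). The estimate of spread is shared by all groups, and Liver KO held 0.226, 0.319 and 6.03 CPM against 1.16, 0.374 and 0.729 CPM in Liver Control, so that KO 3 alone was high. Without that library the adjusted p was 0.000477 in lung and 0.0127 in heart, and in fits of 1 tissue it was 0.00193 and 0.00959. Ccl11, an eosinophil chemokine, had 15 counts in Liver KO, mostly from KO 3, and 0 in Liver Control, at least 5.18-fold higher against a floor of 3 counts over the group, and did not pass (0.0673 by adjusted p). Its mean effect over tissues passed (adjusted p = 0.0313), a fold that depends on the prior count in liver, but was lost without any of 6 libraries, with adjusted p up to 0.198.

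**Figure D4:**
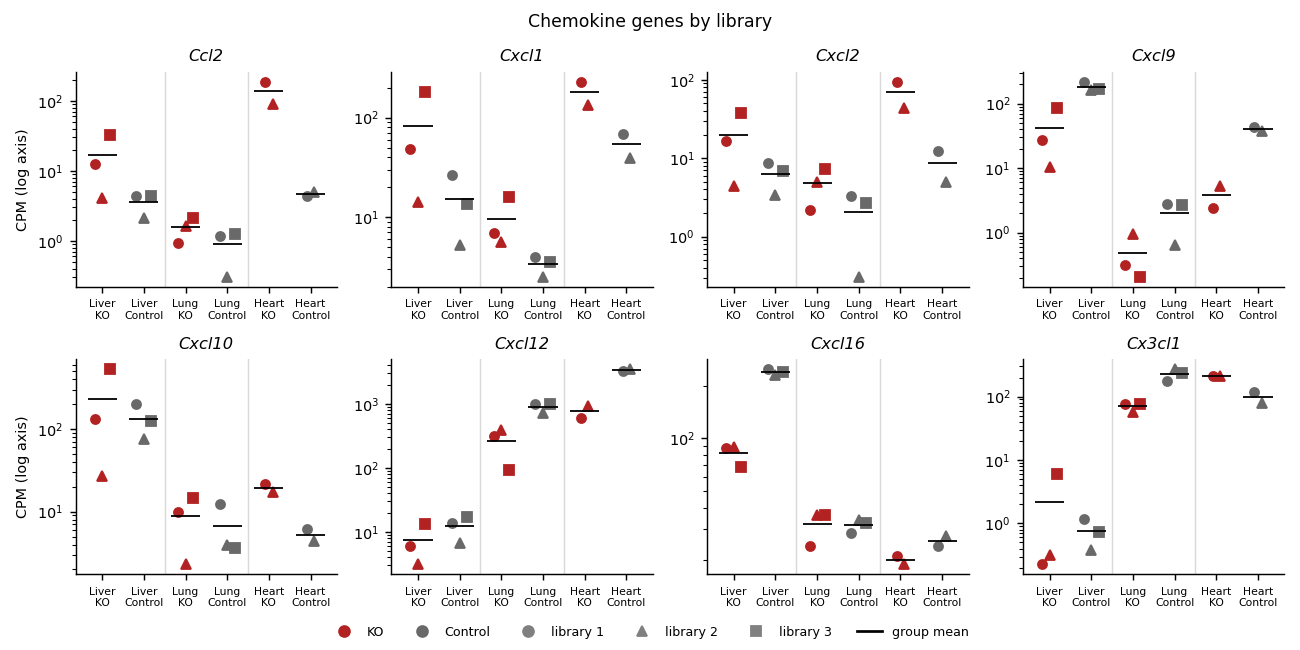
Level in CPM (vertical, log axis) of 8 chemokine genes in each of the 16 libraries, KO red left of Control grey in each tissue, with the library number as symbol and a line at the group mean. Ccl2 reaches 89.3 and 186 CPM in Heart KO, Cxcl9 lies below the Controls in Liver KO and Heart KO, and Cxcl16 lies below them in Liver KO.

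Among cytokines, Il1a rose in heart and passed in neither other tissue. It encodes interleukin 1 alpha, an alarmin that acts through the IL-1 receptor on neighbouring cells, and had 35.9 and 17.8 CPM in Heart KO against 0.464 and 0.915 CPM in Heart Control (log2 fold change 5.27, SE 0.548, adjusted p = 5.82e-05). Liver held much more at baseline, with 144, 136 and 105 CPM in KO and 273, 111 and 137 CPM in Control, and lung 5.51, 6.38 and 4.09 CPM in KO and 6.23, 8.64 and 4.8 CPM in Control, with overlap in both. The heart change exceeded those of liver by 5.71 (adjusted p = 0.000191) and of lung by 5.57 (adjusted p = 0.000428). Both calls held in every alternative run for differences. Il1b, its inflammasome-processed relative, had 12.7 and 8.6 CPM in Heart KO and 1.16 and 3.19 CPM in Heart Control (log2 fold change 2.29, SE 0.69, adjusted p = 0.033). That call was lost without KO 1 or Control 1, with the block of title numbers and without the male libraries. With 1 library left out the log2 fold change was 1.76 to 3.20.

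Il6 and Lif, which signal through gp130, rose in heart. Il6 had 123 and 44.9 CPM in Heart KO and 3.77 and 3.88 CPM in Heart Control (log2 fold change 4.45, SE 0.911, adjusted p = 0.00424). Lif had 65.8 and 18.6 CPM in Heart KO and 2.35 and 0.915 CPM in Heart Control (log2 fold change 4.69, SE 0.894, adjusted p = 0.00276). Both calls held in every alternative, and KO 1 was well above KO 2 for each. In liver Lif also passed, with 1.8, 0.638 and 3.29 CPM in KO and 0.712, 0.204 and 0.0911 CPM in Control (log2 fold change 2.44, SE 0.764, adjusted p = 0.0381), with overlap between KO 2 and Control 1 and adjusted p up to 0.153 without KO 1, KO 3, Control 2 or Control 3. This liver call was also lost without the male libraries. Lung had 6.33, 3.93 and 9.91 CPM of Lif in KO and 2.66, 1.83 and 3.21 CPM in Control, separated but short of the threshold (log2 1.39, adjusted p = 0.222). Il6 in liver had 3.03, 1.68 and 10.5 CPM in KO and 1.42, 1.94 and 1.06 CPM in Control and did not pass (log2 1.78, adjusted p = 0.0992).

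Csf3, the granulocyte growth factor G-CSF, had at most 0.277 CPM in any Control library. Liver KO held 161 counts and Liver Control 1, a ratio of 167 with a 95% counting interval of 29.5 to 6622, at 0.516, 0.058 and 4.56 CPM in the KO libraries (adjusted p = 0.0155). KO 3 held most of them, and the call was lost without KO 3 or any Liver Control, with adjusted p up to 0.102. Heart had 8.2 and 1.02 CPM in KO and 0.029 and 0.111 CPM in Control (log2 fold change 5.96, SE 1.76, adjusted p = 0.03), a call lost without KO 1 (0.214) or either Control. Csf1, the macrophage growth factor M-CSF, changed in opposite directions. Liver had 217, 269 and 183 CPM in KO and 459.8, 376 and 306 CPM in Control, a fall (log2 fold change −0.77, SE 0.203, adjusted p = 0.016), and lung 351, 282 and 392 CPM in KO and 168, 171 and 199 CPM in Control, a rise (log2 fold change 0.93, SE 0.204, adjusted p = 0.0119). Groups did not overlap in either, the difference between lung and liver was 1.70 (adjusted p = 0.00319) and held in every alternative, the liver call was lost without KO 3 or Control 1 (up to 0.0767), and the lung call without the male libraries (0.0517). The lung minus liver difference was not run in fits of 1 tissue or without the male libraries. Heart had 203 and 137 CPM in KO and 180.4 and 136 CPM in Control, which overlapped.

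Il34, the other ligand of the CSF1 receptor, was at low levels and fell in liver, with 0.677, 0.145 and 0.447 CPM in KO and 1.55, 1.02 and 1.58 CPM in Control (log2 fold change −1.72, SE 0.425, adjusted p = 0.0114, and 0.0801 in a fit of liver alone). In lung it had 0.655, 1.07 and 0.97 CPM in KO and 1.7, 2.24 and 1.78 CPM in Control, separated but not past the threshold (log2 −1.09, adjusted p = 0.117). Il33, a nuclear alarmin of endothelial cells, had 21 and 20.3 CPM in Heart KO and 3.4 and 7.48 CPM in Heart Control (log2 fold change 1.93, SE 0.361, adjusted p = 0.00252), and 36, 40.7 and 50.5 CPM in Liver KO and 18.7, 23.7 and 20.8 CPM in Liver Control (log2 fold change 1.01, SE 0.283, adjusted p = 0.0227). Both tissues were without overlap. The liver call was lost without Liver KO 3, Control 1 or Control 3 (up to 0.0746) and without the male libraries (0.108). Lung had 13.9, 6.63 and 7.44 CPM in KO and 13.3, 14.5 and 12.2 CPM in Control, with overlap. It differed from heart by 2.44 in log2 fold change, heart minus lung (adjusted p = 0.00769, held in every alternative run for differences). The lung minus liver difference of −1.52 (adjusted p = 0.0383) was lost without any of 12 of the libraries.

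Il15, which sustains NK and memory T cells, was lower in the mean over tissues (log2 fold change −0.62, SE 0.178, adjusted p = 0.0175) and passed in no single one. It had 14.6 and 17.6 CPM in Heart KO and 26.9 and 28.7 CPM in Heart Control, without overlap, and the call of the mean was lost without Heart KO 1 (0.0592). Its presenting receptor Il15ra, outside the set, fell in each tissue, with 6.53 ± 0.894 CPM in Liver KO and 19.7 ± 1.5 CPM in Liver Control (log2 −1.59, adjusted p = 7.36e-06), and log2 changes of −0.92 in lung and −1.05 in heart. Il7, a survival factor of lymphocytes, stayed at or below 1.99 CPM in every library and passed nowhere.

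Of the genes grouped with NF-kB, Ninj1 was higher in every tissue. Ninj1 (chr13:49187485-49196244) encodes an adhesion protein that also ruptures the membrane of dying cells, and its window above holds no NF-kB consensus. Heart had 71.4 and 80.1 CPM in KO and 19.2 and 24.6 CPM in Control (log2 fold change 1.79, SE 0.166, adjusted p = 2.8e-05). Liver had 109, 107 and 124 CPM in KO and 58.1, 52.1 and 68 CPM in Control (log2 fold change 0.93, SE 0.132, adjusted p = 0.000251). Lung had 58.6, 71.3 and 64.1 CPM in KO and 39.4, 31.9 and 36.6 CPM in Control (log2 fold change 0.85, SE 0.132, adjusted p = 0.00153). Every KO library lay above every Control of its tissue, and all 3 calls held in every alternative run. The heart change exceeded those of liver (0.86, adjusted p = 0.0213) and lung (0.94, adjusted p = 0.018), though without Heart KO 2 or Heart Control 1 both differences were lost, with adjusted p up to 0.119.

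Tnfaip2 (chr12:111442469-111455018), a gene induced by tumour necrosis factor, also rose in all 3 tissues. It had 343 and 239 CPM in Heart KO and 24.2 and 21.6 CPM in Heart Control (log2 fold change 3.67, SE 0.634, adjusted p = 0.00147). Lung had 53.4, 51 and 72.1 CPM in KO and 16.6, 9.53 and 12.6 CPM in Control (log2 fold change 2.18, SE 0.491, adjusted p = 0.0138). Both were without overlap. Liver had 38.7, 22.5 and 124 CPM in KO and 24.3, 11.8 and 22.8 CPM in Control (log2 fold change 1.65, SE 0.482, adjusted p = 0.0277), where KO 2 lay between the Controls and the call was lost without KO 3 (0.202), Control 2 or Control 3. The lung call was lost without Control 2 or Control 3, with adjusted p up to 0.0665. In lung, where Tnfaip2, Ninj1, Nfkb1, Birc3 and Csf1 rose, lung epithelial sums were 495, 625 and 400.3 CPM in KO and 2068, 2489 and 3278 CPM in Control, and macrophage sums 132, 259.6 and 77.6 CPM in KO and 489.7, 570.0 and 523 CPM in Control. Most of the macrophage sum in lung was Lyz2, with 91.5, 164 and 44.9 CPM in KO and 432, 534 and 452 CPM in Control. Only 1 of the 14 macrophage and monocyte markers was lower in lung, and their median log2 fold change was 0.23. Neutrophil sums in lung were 18.1, 16.1 and 43.1 CPM in KO and 6.73, 1.14 and 2.23 CPM in Control, without overlap and with none of 6 markers called. Cardiomyocyte sums were 43.1, 161 and 20.7 CPM in Lung KO and 11.6, 9.61 and 15.1 CPM in Lung Control, also without overlap, with 1 of 8 markers higher. The part of these markers in the lung changes was not tested.

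The subunit gene Nfkb1, encoding p105 and p50, changed by small amounts in opposite directions. Liver had 187, 189 and 154 CPM in KO and 268, 239 and 245 CPM in Control, a fall (log2 fold change −0.50, SE 0.116, adjusted p = 0.00735), and lung 295, 341 and 263 CPM in KO and 211, 198 and 204 CPM in Control, a rise (log2 fold change 0.55, SE 0.116, adjusted p = 0.00967). Neither tissue overlapped, and the difference between lung and liver of 1.06 held in every alternative run for differences (adjusted p = 0.00189). Those did not include fits of 1 tissue or leaving out the male libraries. Without the male libraries the lung call alone was lost (0.127). Heart had 176 and 168 CPM in KO and 180.2 and 159 CPM in Control, which overlapped.

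The non-canonical subunits and the inhibitors did not pass in any single tissue in the fit over all libraries. Relb had 97.1 and 77.3 CPM in Heart KO and 55.5 and 35.8 CPM in Heart Control, 74.1, 71.3 and 91.1 CPM in Lung KO and 68.6, 34.9 and 29.6 CPM in Lung Control, and passed in the mean over tissues (log2 fold change 0.59, SE 0.188, adjusted p = 0.0302), which was lost without 1 of 7 libraries (up to 0.098). Nfkb2, encoding p100 and p52, averaged 129 ± 23.6 CPM in Heart KO and 83.2 ± 32.7 CPM in Heart Control (SD, n = 2 each; log2 0.63, adjusted p = 0.187). Nfkbia, encoding IκBα and among the top 2 of the set per kilobase of exon in each group, averaged 726 ± 153 CPM in Heart KO and 419.9 ± 14.6 CPM in Heart Control (n = 2 each; log2 0.79, adjusted p = 0.163). In a fit of heart alone Relb (adjusted p = 0.0298) and Nfkbia (0.027) passed there. Tnfaip3, encoding the brake A20, ranged from 23.4 to 476 CPM within Liver KO alone, against 47.3 to 134 CPM in Liver Control. In heart it had 263 and 134 CPM in KO and 59.3 and 39.96 CPM in Control, separated but not past the threshold (log2 2.0, adjusted p = 0.179, and 0.00497 in a fit of heart alone).

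Birc3, encoding the ubiquitin ligase cIAP2, rose in lung, with 111, 82.2 and 110.1 CPM in KO and 65.3, 50.4 and 44.4 CPM in Control (log2 fold change 0.92, SE 0.218, adjusted p = 0.0177). The groups did not overlap, and the call was lost without KO 1, KO 3, Control 2 or Control 3 (up to 0.0843) and without the male libraries. Ptgs2, the inducible cyclooxygenase, rose in heart, with 295 and 99.8 CPM in KO and 16 and 36.6 CPM in Control (log2 fold change 2.91, SE 0.627, adjusted p = 0.00593), lost without KO 1 or Control 1 (up to 0.0735). Lung held 178, 37 and 116 CPM of Ptgs2 in KO and 76.2, 65.6 and 79.1 CPM in Control, with overlap, and liver at most 2.19 CPM.

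**Figure D5:**
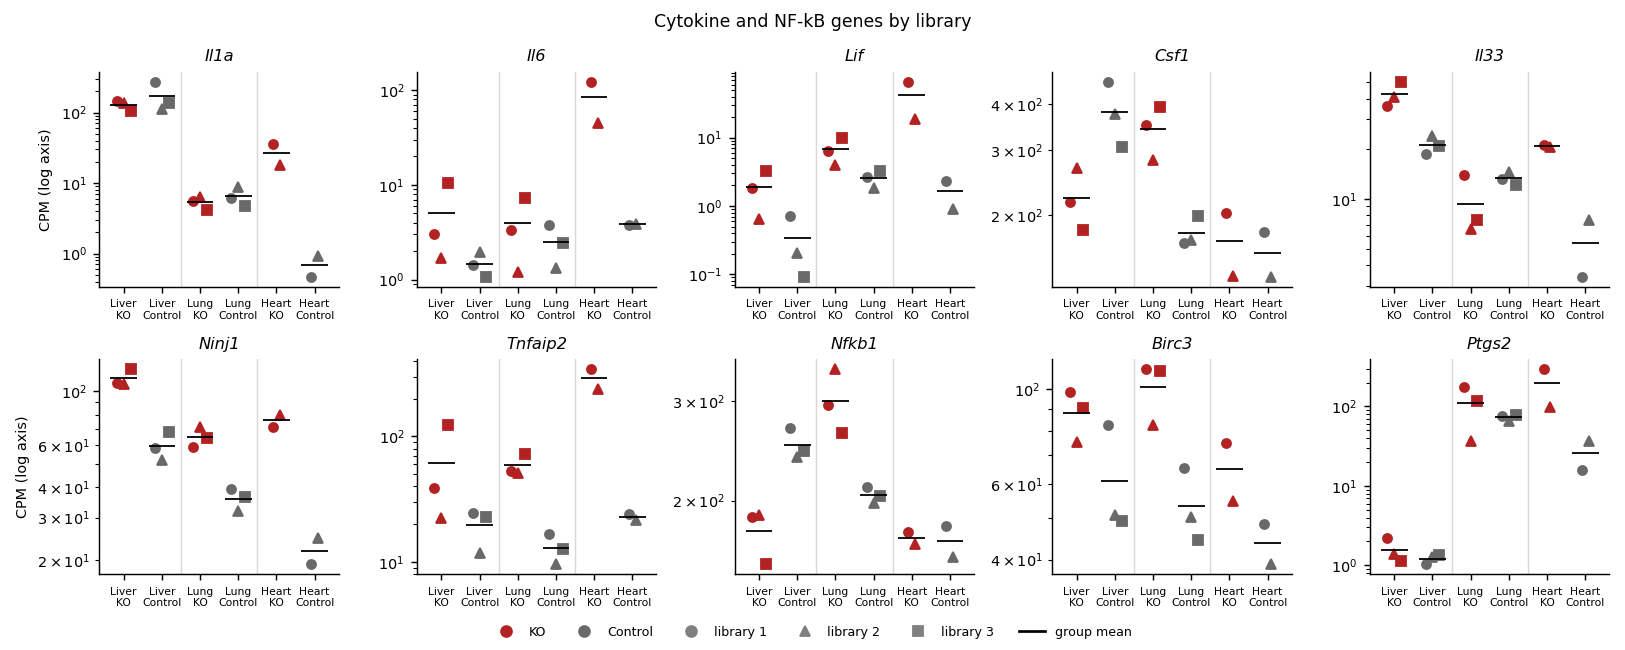
Level in CPM (vertical, log axis) of 5 cytokine genes and 5 NF-kB genes in each of the 16 libraries, KO red left of Control grey in each tissue, with the library number as symbol and a line at the group mean. Ninj1 is higher in every KO library than in every Control of its tissue, Il1a rises in heart, and Csf1 and Nfkb1 are lower in Liver KO and higher in Lung KO.

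Other genes of the pathway were counted from lists. Of 36 further NF-kB signalling genes, 9 were higher and 1 lower in heart, 7 higher and 5 lower in liver, and 3 higher in lung. The shares of all genes to read this and the next lists against are those above: 10.2% higher and 9.09% lower in heart, 9.54% and 9.87% in liver, and 4.35% and 4.11% in lung. Nfkbie, an IκB inhibitor, had 30.7 ± 3.67 CPM in Heart KO and 9.54 ± 2.68 CPM in Heart Control (SD, n = 2 each; log2 1.69, adjusted p = 0.00235), and Il1rap, a subunit of the IL-1 receptor, 63.2 ± 7.5 CPM in Lung KO and 14 ± 1.07 CPM in Lung Control (n = 3 each; log2 2.18, adjusted p = 3.11e-06). Tlr2, a bacterial sensor, fell in liver, with 17.8 ± 4.1 CPM in Liver KO and 63.1 ± 9.55 CPM in Liver Control (log2 −1.83, adjusted p = 3.97e-05). Of 24 further NF-kB targets tested, 5 were higher in heart, 6 higher and 2 lower in liver and 3 higher in lung. Plau, the urokinase gene, rose in all 3, with 1846 ± 683 CPM in Liver KO and 187 ± 22.6 CPM in Liver Control (log2 3.30, adjusted p = 1.67e-05) and log2 changes of 2.7 in lung and 2.40 in heart.

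Ackr4 and Ackr1, which take up or bind chemokines without signalling to migrate, fell in liver. Ackr4, which scavenges CCL19 and CCL21, had 2.46 ± 1.81 CPM in Liver KO and 113 ± 7.05 CPM in Liver Control (n = 3 each; log2 −5.52, adjusted p = 2.3e-05) and 2.34 ± 1.18 CPM in Lung KO and 38.6 ± 15.3 CPM in Lung Control (log2 −4.06, adjusted p = 0.000678). Ackr1, which binds inflammatory chemokines on venules, had 6.22 ± 2.02 CPM in Liver KO and 38.4 ± 14.6 CPM in Liver Control (log2 −2.63, adjusted p = 0.000636), and it was higher in heart (log2 1.99, adjusted p = 0.0385). They were counted in a list of chemokine receptors and scavengers that also holds Cxcr2. Of its 11 genes 2 were higher and 3 lower in liver, 2 lower in lung, and 4 higher in heart. Among 11 genes of venous endothelium, which include Selp, Sele, Vcam1 and Ackr1 already given, 7 were higher in heart, 3 higher and 2 lower in liver, and 2 higher and 1 lower in lung. Of 25 further adhesion genes 7 were higher and 4 lower in heart, 3 and 10 in liver, and 4 and 6 in lung. Jam2, a junction molecule that leukocytes cross, had 207 ± 27.4 CPM in Heart KO and 998 ± 49.4 CPM in Heart Control (n = 2 each; log2 −2.27, adjusted p = 0.00033) and 132 ± 52.2 CPM in Liver KO and 764 ± 65.2 CPM in Liver Control (n = 3 each; log2 −2.53, adjusted p = 1.58e-05). Of 18 further chemokines 9 were higher in heart, led by Cxcl15, Ccl6, Pf4 and Cxcl17. Cxcl15, a chemokine of lung epithelium, had 6.78 ± 3.05 CPM in Heart KO and 0.0725 ± 0.103 CPM in Heart Control (log2 6.51, adjusted p = 0.000349), which stands beside the lung epithelial markers above.

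Genes that tissue dissociation is known to switch on were counted beside the set. The summed level of 25 immediate early genes was 12050.4, 4208 and 26377 CPM in Liver KO and 11085, 3751 and 9484 CPM in Liver Control, so that KO 3 was highest and KO 2 and Control 2 lowest. Of the 39 genes 27 were highest in KO 3 among Liver KO, where 34.9% of all genes were, and 25 were lowest in KO 2, where 31.9% were. In Liver Control 23 were lowest in library 2, in Lung KO 21 and in Lung Control 22, where 33.5%, 32.1% and 38.8% of all genes were. In Heart KO 31 of 39 were higher in library 1 than in library 2, where 46.9% of all genes were. Library 2 of each of these 5 groups is also its male library. Immediate early sums in heart were 28439 and 28116 CPM in KO, below 35995 and 47181 CPM in Control. Liver KO 3 also had the highest fibroblast and mural sum among liver libraries, with 32.3, 33.2 and 184 CPM in Liver KO and 63.1, 52.3 and 70.9 CPM in Liver Control. Its mesothelial sum was the highest too, with 23.3, 15.8 and 68.3 CPM in Liver KO and 15.5, 12.7 and 29 CPM in Liver Control. The part of these sums in the liver and heart changes was not tested.

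In Control cells, 19 of the 39 were highest in liver, 10 in lung and 10 in heart, where 37%, 29.8% and 33.2% of all genes tested were. Between Lung Control and Liver Control 23 differed, where 47% of all genes did, between Heart Control and Liver Control 22, where 47.6% did, and between Heart Control and Lung Control 12, where 29.5% did. Cxcl12 averaged 3396 ± 142 CPM in Heart Control, 899 ± 162 CPM in Lung Control and 12.5 ± 5.35 CPM in Liver Control, and both neighbours in that order differed (adjusted p = 0.0208 and 3.3e-06). Il1a had the order liver, lung, heart, at 174 ± 87, 6.56 ± 1.95 and 0.689 ± 0.318 CPM in the Controls (4.68e-07 and 0.000319). Icam2 was highest in Lung Control (623 ± 16.2 CPM), and Liver Control and Heart Control did not differ beyond their spread (254 ± 16.2 and 254 ± 12.1 CPM). Compared per kilobase of exon, Nfkbia and Icam2 ranked first and second of the set in all groups but Heart Control, where Cxcl12 led with 415 RPKM. In Heart KO Ccl2 followed them, at 121 RPKM.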

How the data were processed

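RNA from sorted endothelial cells of liver, lung and heart was sequenced in 16 libraries. The authors deposited 1 table of raw counts per gene, 52636 genes by 16 libraries, with whole-number values and no normalization. The submitters' processing notes list FastQC 0.11.5, STAR 2.7.6a and the build GRCm38, without saying what each was used for. Which program counted the reads, with which annotation and whether by strand, is not given there. The labels' protocols name both an unstranded and a stranded TruSeq kit without saying which library had which. Exons of Cxcl10, Cxcl11, Cxcl16, Icam1, Il1a, Il1b, Il34, Il7, Nfkb2, Selp, Tnfaip2 and Vcam1 overlap a gene on the opposite strand, from which their reads may not be separable.

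Groups were taken from the labels. The counts were fitted with edgeR 4.0.16 in R 4.3.3, using TMM factors (0.9157 to 1.073), filterByExpr (minimum count 10, minimum total 15, leaving 19646 genes), 6 group means over all 16 libraries and the two-sided quasi-likelihood F test. P-values were adjusted by Benjamini-Hochberg over all genes tested, with a threshold of 0.05. CPM, RPKM and SDs were computed here from the deposited counts. Depths of 30226340 to 41449054 counts leave counting error large for genes with few counts. The 95% interval of the Csf3 ratio and the floor of 3 counts cover counting error only. The 95% intervals of Icam1 were built from the standard errors of the edgeR test, which include the spread between libraries. Pearson correlations of log2 CPM between libraries of a group, across genes, were 0.964 to 0.986, and no pair agreed within sampling noise. On simulated counts at these depths, the test recovered 62%, 66% and 55% of genes changed by 2 on the log2 scale in liver, lung and heart.

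The 40 genes, the other gene lists and the alternatives were chosen with earlier results of these data known. Genes of the set past the threshold in a tissue, in the mean over tissues or in a difference between tissues are given per library, and the others by ranges. Up to 4 genes with the smallest adjusted p were named from each other list and tissue. Alternatives were DESeq2 size factors in edgeR, no filter, DESeq2 1.42.0 (Wald test), a fit per tissue, sex as a covariate, replicate numbers as a block, each library left out, and, chosen after seeing the data, leaving out the male libraries. The fit per tissue covered only the changes within a tissue. Leaving out the male libraries covered those and the mean over tissues, and no differences between tissues.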

Additional observations from a re-analysis of the deposited data

Results flagged for a closer look

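The knockout change differed between tissues by the edgeR test of the difference itself for the genes below, with values as differences of log2 fold changes. Heart exceeded liver for Vcam1 (3.12), Selp (4.21), Ccl3 (4.24), Ccl4 (4.64), Ccl5 (5.36), Cxcl16 (1.19), Il1a (5.71), Ninj1 (0.86) and the deleted gene Erg (0.84), with adjusted p between 0.000191 and 0.0226. Heart exceeded lung for Selp (3.04), Ccl2 (4.12), Ccl3 (3.94), Ccl4 (4.19), Ccl5 (5.04), Il1a (5.57), Il33 (2.44) and Ninj1 (0.94), with adjusted p between 0.000428 and 0.0481.

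Lung exceeded liver for Cxcl16 (1.58), Csf1 (1.70), Nfkb1 (1.06) and Erg (0.78), and lay below liver for Cxcl5 (−6.01) and Il33 (−1.52), with adjusted p between 0.000826 and 0.0383. The differences of Il1a, of Il33 between heart and lung, and of Cxcl16, Csf1 and Nfkb1 between lung and liver stayed past the threshold in every alternative run for differences. Fits of 1 tissue and leaving out the male libraries were not run for differences between tissues. The other differences were each lost without at least 1 library, with adjusted p up to 0.204 for Selp between heart and lung. For Erg the difference was lost without Heart KO 1, Heart KO 2 or Heart Control 1 between heart and liver (up to 0.0941), and without Liver Control 3 or Lung Control 2 between lung and liver (up to 0.0521).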

How the results depend on the processing

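Genes of the set called in every alternative numbered 9 of 19 in heart, 4 of 14 in liver and 1 of 5 in lung, and no called gene changed sign. In the mean over tissues, 17 of 26 calls held in every alternative run for it. Of these Cxcl9, Cxcl12, Cxcl16 and Il34 were lower. Ccl2, Ccl7, Cxcl1, Cxcl2, Csf3, Il1a, Il6, Il33, Lif, Tnfaip2, Birc3, Ninj1 and Ptgs2 were higher. A change in 1 tissue can carry a mean, and Il1a passed in heart only. Leaving out 1 library gave 10 to 18 higher and 0 to 2 lower in heart, 2 to 12 higher and 3 to 6 lower in liver, and 3 to 6 higher and 0 to 2 lower in lung. A fit of liver alone called 3 higher and 3 lower. Lung had 1 lower with no filter, with the block of title numbers and without the male libraries, and 2 with DESeq2 and in a fit of lung alone; 2 were higher there without the male libraries. Heart had 1 lower with sex as a covariate, with the block of description numbers and without the male libraries, a setting that leaves 1 Heart KO library assumed to vary like the other groups. Without Liver KO 3, log2 fold changes in liver turned for Cxcl10 (−0.74 to 1.31 over libraries left out), Cx3cl1 (−1.49 to 2.02) and Tnfaip3 (−0.43 to 1.83), and without Lung KO 3 in lung for Selp (−0.26 to 1.07) and Il6 (−0.12 to 1.08). The replicate block by title number gave −0.054 for Cxcl10 in liver.

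Over all genes, 3814 were called in liver, 1662 in lung and 3786 in heart. Without the male libraries 2272, 518 and 2522 were, and with DESeq2 2514 in lung. Differences between tissues numbered 1219 (lung and liver), 1635 (heart and liver) and 1257 (heart and lung), against 2072, 2673 and 2154 with DESeq2. Leaving out 1 library gave 910 to 2086 in lung, 1847 to 4246 in heart, 804 to 1269, 736 to 1779 and 476 to 1669 for those differences, and 3534 to 6227 between Heart Control and Lung Control, where the title block called 3511. The causes of these shifts were not tested. Same-numbered KO and Control libraries of a tissue correlated at −0.0797 to 0.24 in their deviations, so the numbers were not taken to pair them. With 2 libraries per group, the heart correlations can differ only in sign. Libraries of different tissues were not compared this way, so whether those of 1 number share an animal was not tested. The mean over tissues and the differences between tissues treat all 16 libraries as independent. A block of description numbers over tissues was run only as an alternative.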

Other observations

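Genes of platelets and of endothelial identity, outside the comparisons above, also differed. Summed over 6 platelet markers, levels were 1365, 1054 and 1656 CPM in Liver KO and 124, 135 and 155 CPM in Liver Control, and 173, 128 and 391 CPM in Lung KO and 45.3, 45.9 and 47.6 CPM in Lung Control, with no overlap in either tissue and with 3 and 4 of the 6 markers higher by the edgeR test. Pf4, a platelet chemokine, had 50.8 ± 8.24 CPM in Liver KO and 3.74 ± 0.548 CPM in Liver Control (SD, n = 3 each; log2 3.76, adjusted p = 5.15e-05) and 27 ± 8.89 CPM in Heart KO and 2.9 ± 1.23 CPM in Heart Control (n = 2 each; log2 3.22, adjusted p = 0.00109). Tie1, an endothelial receptor tyrosine kinase, was lower in all 3 tissues, with 557 ± 30.04 CPM in Liver KO and 1469 ± 104 CPM in Liver Control (log2 −1.40, adjusted p = 4.27e-05), and log2 changes of −1.04 in lung and −1.38 in heart. Robo4, an endothelial guidance receptor, was lower in heart, with 149 ± 14.3 CPM in Heart KO and 758 ± 3.23 CPM in Heart Control (log2 −2.34, adjusted p = 0.000366).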
